A study of Mus musculus with 5 samples.

Results

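Known target mRNAs of FMRP, 6 in number, were followed through an RNA immunoprecipitation of mouse hippocampus. They were Adgrb1 and Adgrb2, which encode adhesion G protein-coupled receptors, the guidance receptor gene Plxna4, the activity-induced gene Arc, and Ncdn and Ubr4. They were chosen by name among known targets that are not scaffolds, spectrins or motors. Every deposited region that the authors' annotation placed on one of them was taken, so 6 of the 4713 genes with a region in any list are described. The series examined which mRNAs bind CYFIP1 in the hippocampus of C57BL/6 mice. Anti-HA precipitates came from 2 knock-in mice (knock-in HA), mouse control IgG precipitates came from the same numbered knock-in mice (knock-in IgG, n = 2), and 1 wild-type mouse was precipitated with anti-HA (wild-type HA, n = 1). The labels call the mice knock-in without naming the tagged allele, give no age, and do not say whether the hippocampi of several animals were pooled. Each of the 4 deposited lists holds regions called in 1 HA library over 1 control library, with the reads of both, and both lists over wild type use the same wild-type library.

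CYFIP1 binds FMRP, the protein missing in fragile X syndrome, and also sits in the WAVE complex, which drives branching of actin filaments. FMRP binds many long neuronal mRNAs, largely along their coding sequence, and lowers their translation. Short motifs have been described as enriched in FMRP-bound mRNAs. The first is TGGA or AGGA. The second is ACTT or ACTG.

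For IgG as the control there were 4191 regions for mouse 1 but 1920 for mouse 2, and for wild-type HA 5355 and 5362. Library depth cannot be read from the lists, which leave out reads outside the regions, so reads were scaled within a list. A scaled fold is the HA over control read ratio of a gene, divided by the median ratio of the list's regions with at least 20 reads. This median ratio came to 2.89 (mouse 1) and 0.947 (mouse 2) for IgG, and to 1.41 and 1.75 for wild-type HA. The list of mouse 2 over IgG stood apart, with 85.7% of its regions on chromosomes 12 and 15, against 29.3 to 30.6% in the other 3 lists. It held 75 regions on chromosome 4 and 4 on chromosome 6, against 1043 and 615 in mouse 1. Each list has 1 library on each side, so no test was possible within a list, and the intervals given are exact 95% counting intervals, which cover counting error only. The pair of mice gives the only spread. Of the neuronal markers, 1 to 5 of 16 had a region in a list, and of the choroid plexus markers 0 or 1 of 6. Astrocyte markers had 1 or 2 of 8, and oligodendrocyte markers and microglia and vessel markers each had 0 or 1 of 8. RNA in these bulk precipitates came from all cells of the tissue, so fewer cells of a type and less RNA per cell cannot be told apart.

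The 6 mRNAs lay above their list median in 2 of 5 and 0 of 2 cases over IgG in mice 1 and 2, and in 3 of 6 and 1 of 6 over wild-type HA, counting members with at least 20 reads. The list median is taken over regions and does not split the genes evenly. The median gene lay below it over IgG (0.839 and 0.822) and above it over wild-type HA (1.15 and 1.10). No member with at least 20 reads reached 2-fold in any list. With the pooled ratio of all reads in a list as the scale, Plxna4 in both mice and Ubr4 in mouse 1 did so over wild-type HA. That scale raises the folds of all genes in these lists alike, by 0.73 and 0.93 in log2, and leaves their ranks unchanged. Plxna4 stays above 56.0% and 49.9% of all genes in mice 1 and 2, and Ubr4 above 66.8% in mouse 1. Scaled to the list median, 9.69% and 8.80% of all genes with at least 20 reads reached 2-fold over IgG in mice 1 and 2. Over wild-type HA 13.5% and 11.6% did so. Ncdn was the only member at 0.5-fold or less, and only over wild-type HA, in both mice. Among all genes, 20.1% and 19.0% were at 0.5-fold or less over IgG, and 4.09% and 4.49% over wild-type HA. The members' median fold over IgG came to 0.974 and 0.700, against 0.839 and 0.822 for all genes. Over wild-type HA it was 0.890 and 0.739, against 1.15 and 1.10 for all genes. With so few members, these shares and medians describe the 6 genes and were not tested.

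Summed over the members, knock-in HA had 694 reads and knock-in IgG 221 reads in mouse 1, a scaled fold of 1.08 (0.931 to 1.27). In mouse 2 the sums were 140 knock-in HA and 206 knock-in IgG reads, a fold of 0.718 (0.575 to 0.894). Against wild type, mouse 1 had 767 knock-in HA and 729 wild-type HA reads, a fold of 0.745 (0.672 to 0.826). Mouse 2 had 852 knock-in HA and 765 wild-type HA reads, a fold of 0.636 (0.577 to 0.703). Both sums over wild type lay below the list median, whereas over IgG the sum lay above it in mouse 1 and below it in mouse 2. These directions depend on the scale. With the pooled ratio of all reads in a list as the scale, all log2 values of the IgG lists shift by -0.42 in mouse 1 and -1.09 in mouse 2, and those of the wild-type lists by 0.73 and 0.93, and the sums become 0.812, 0.338, 1.24 and 1.21.

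**Figure D1:**
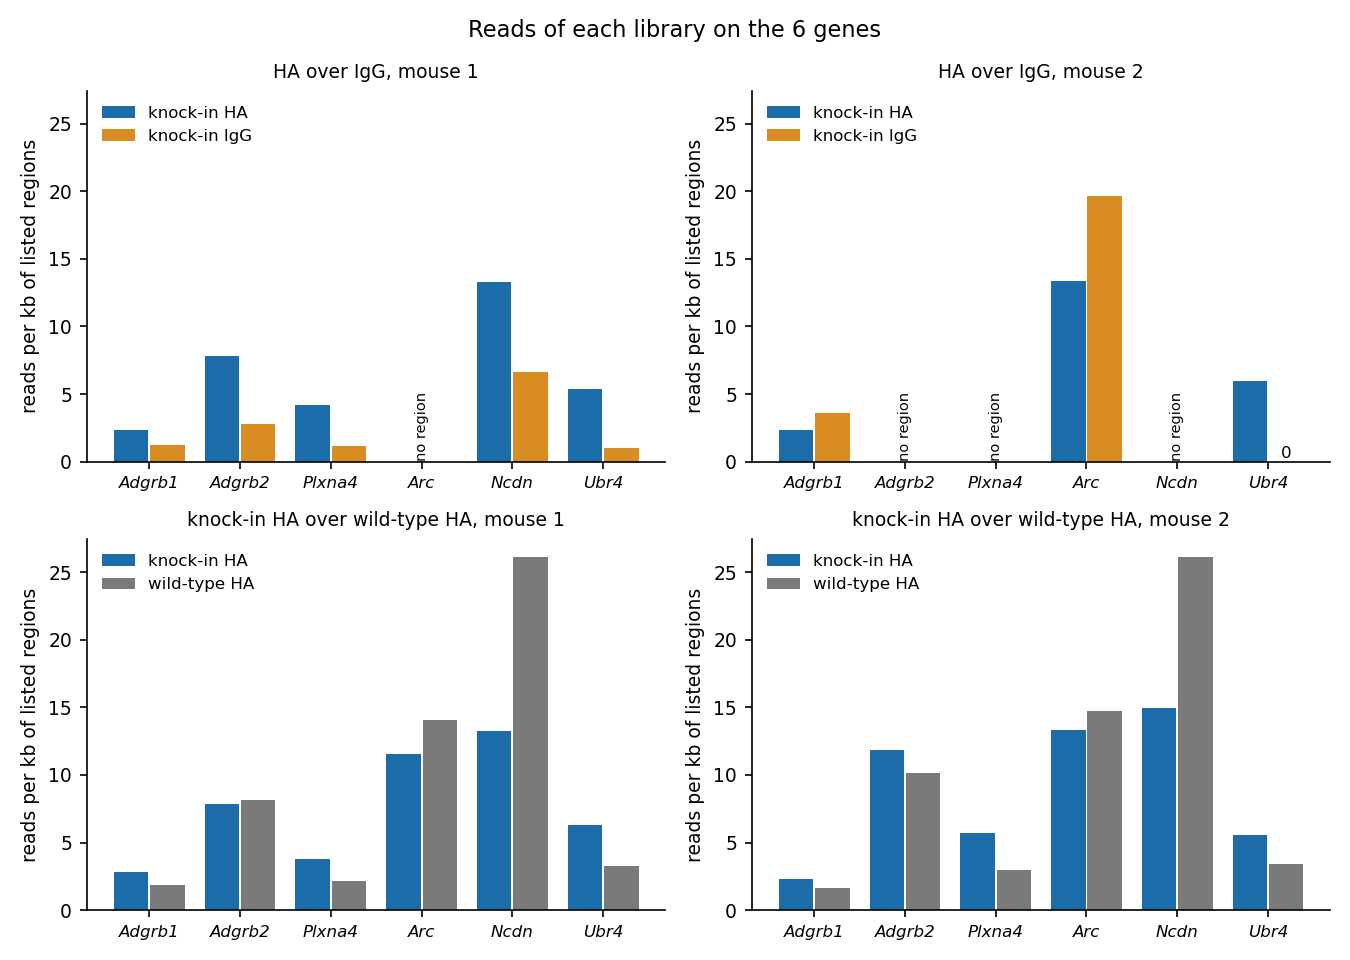
Reads per kb of listed regions (y axis, linear from 0) on each of the 6 genes (x axis) in the 4 lists, with knock-in HA in blue, knock-in IgG in orange and wild-type HA in grey; single libraries, so there are no error bars. Ncdn has 13.3 and 14.9 reads per kb in knock-in HA, against 26.1 in wild-type HA, and Arc has 13.3 in knock-in HA, against 19.6 in knock-in IgG of mouse 2.

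**Figure D2:**
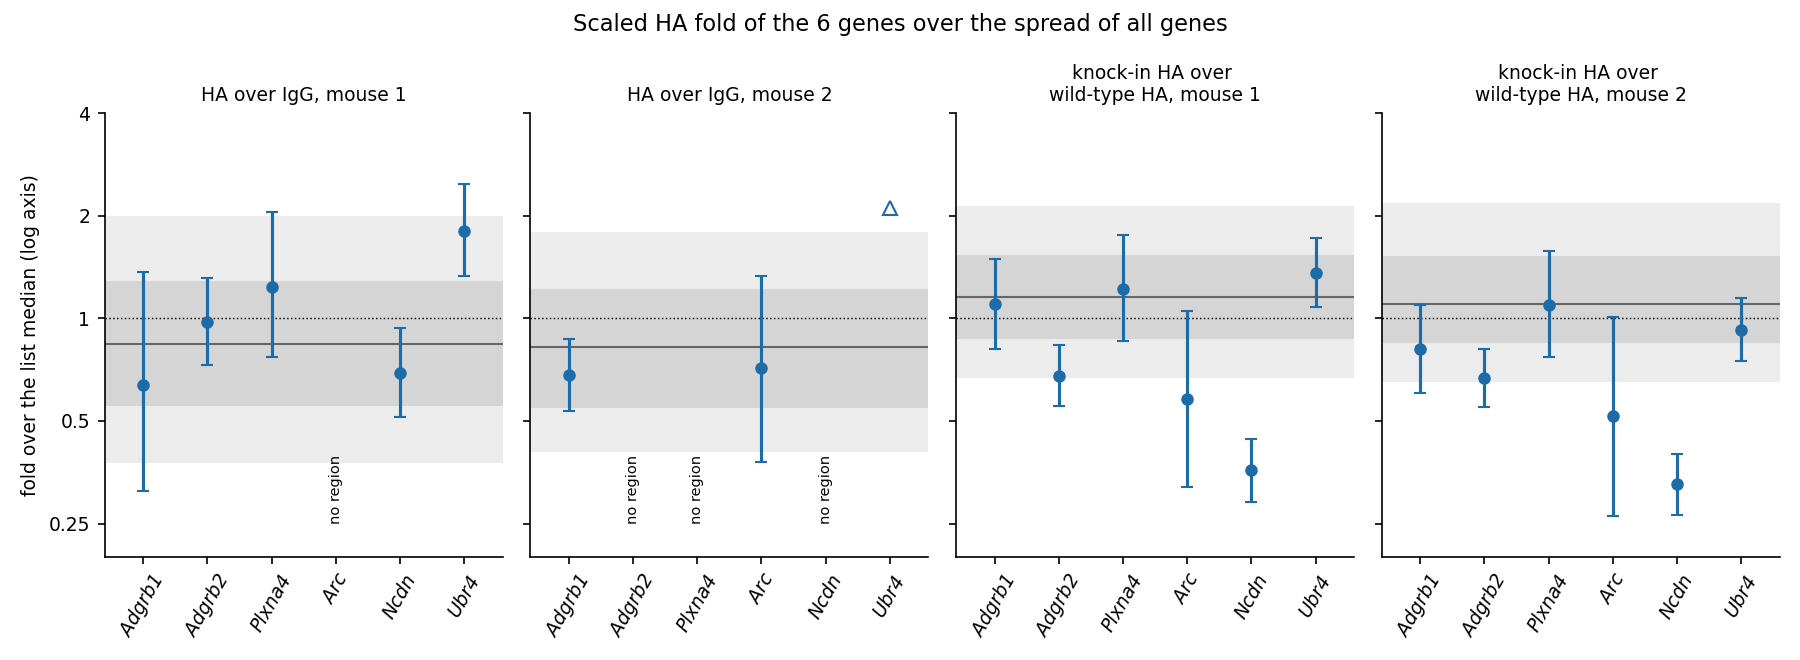
Scaled fold of each gene (y axis, log scale) in the 4 lists, with bars for the exact 95% counting interval, over grey bands that span the 10th to 90th and 25th to 75th percentile of all genes with at least 20 reads and a line at their median. The open triangle is a lower bound from 0 control reads (Ubr4, mouse 2), and Ncdn over wild-type HA, at 0.359 and 0.326, lies below the pale band in both mice.

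Adgrb1 encodes BAI1, an adhesion receptor that recognises phosphatidylserine on dying cells and promotes synapse formation. Its transcript Adgrb1-201 (gene ENSMUSG00000034730, chr15:74516195-74589464, plus strand) has 31 exons. The start of its coding sequence lies in exon 2, inside a region that both lists of mouse 2 hold, and is shown for the motifs it carries (chr15:74529157-74529276, plus strand, GRCm38). Here and below, 120 coding bases of a listed region are printed, with matches to either motif in capitals.
Adgrb1: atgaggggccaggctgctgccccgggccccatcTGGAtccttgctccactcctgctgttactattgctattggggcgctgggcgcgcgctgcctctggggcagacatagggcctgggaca
It holds 1 TGGA and no ACTT or ACTG. At least 1 TGGA or AGGA stands in 83.2% of the 284605 windows of 120 bases cut from the coding sequences of 21205 genes, and at least 1 ACTT or ACTG in 63.8%.

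Adgrb1 had 24 knock-in HA and 13 knock-in IgG reads in mouse 1, a fold of 0.638 (0.312 to 1.36). In mouse 2 it had 115 knock-in HA and 178 knock-in IgG reads, a fold of 0.682 (0.535 to 0.868). It was the only member with at least 20 reads over IgG in both mice, with a mean log2 fold of -0.60 ± 0.07 (SD, n = 2). IgG reads were high in mouse 2, on a list whose chromosome 15 regions had a median ratio of 0.783, and the part of that list's makeup in the result was not tested. Over wild-type HA it had 115 knock-in HA reads against 74 wild-type HA reads in mouse 1 (1.10-fold, 0.815 to 1.49). In mouse 2 it had 115 knock-in HA reads against 81 wild-type HA reads (0.811-fold, 0.605 to 1.09). Both intervals hold 1, and with the pooled scale the folds become 1.83 and 1.54.

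Within Adgrb1 most reads lay in wide regions downstream of exon 2, and exons made up 7.9% of the bases listed in mouse 2. There a region of 48450 bp from exon 3 to exon 28, with 2913 exonic bases, held 102 of the knock-in HA reads, against 164 knock-in IgG and 65 wild-type HA reads, and it also holds the small gene Gm26117. The exon 2 region, of 1140 bp, held 13 knock-in HA reads, against 14 knock-in IgG (0.981-fold) and 16 wild-type HA reads (0.464-fold), and it is the only Adgrb1 region of mouse 2 on no other gene. In mouse 1 the region over exons 18 to 28 had 83 knock-in HA and 45 wild-type HA reads (1.31-fold), and that over exons 3 to 15 had 24 knock-in HA and 22 wild-type HA reads (0.773-fold). The genes whose folds over all 4 lists were nearest to those of Adgrb1, among 326 genes, were Begain (distance 0.19 in log2), Dld (0.28) and Gm17349 (0.28).

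Adgrb2 encodes BAI2, a receptor of the same subfamily. Its transcript Adgrb2-205 (gene ENSMUSG00000028782, chr4:129985164-130022633, plus strand) has 30 exons. The start of its coding sequence, also in exon 2, is shown for comparison with Adgrb1 (chr4:129992069-129992188, plus strand, GRCm38).
Adgrb2: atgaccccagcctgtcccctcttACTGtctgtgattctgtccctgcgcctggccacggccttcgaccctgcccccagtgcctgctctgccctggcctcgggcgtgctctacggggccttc
This stretch holds no TGGA or AGGA and 1 ACTG.

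Adgrb2 had 186 knock-in HA and 66 knock-in IgG reads in mouse 1, a fold of 0.974 (0.732 to 1.31). Mouse 2 had no Adgrb2 region over IgG. Over wild-type HA it had 186 knock-in HA reads against 194 wild-type HA reads in mouse 1 (0.679-fold, 0.552 to 0.835). In mouse 2 it had 231 knock-in HA reads against 198 wild-type HA reads (0.667-fold, 0.549 to 0.810). The mean log2 fold over wild type was -0.57 ± 0.02 (SD, n = 2), the smallest spread of the 6 genes, and the shared wild-type library adds no variation to that SD. In these lists 10.4% of 1932 genes and 10.8% of 1671 genes had lower folds. The direction turns with the pooled scale, at 1.13 and 1.27.

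The region over the start of Adgrb2 ran against its other regions. It held 25 knock-in HA and 9 wild-type HA reads in mouse 1 (1.97-fold) and 19 knock-in HA and 9 wild-type HA reads in mouse 2 (1.21-fold). The coding regions of mouse 1 had folds of 0.683 for exon 2 (27 knock-in HA and 28 wild-type HA reads), 0.641 for exons 3 to 22 (95 knock-in HA and 105 wild-type HA) and 0.531 for exons 24 to 30 (39 knock-in HA and 52 wild-type HA). In mouse 2 exon 2 had 0.510 (25 knock-in HA and 28 wild-type HA reads) and exons 3 to 30 had 0.664 (187 knock-in HA and 161 wild-type HA). Both start regions rest on 9 wild-type reads, and their difference from the other regions was not tested. Over IgG in mouse 1 the start region, at 1.08, was close to exon 2 at 1.17 and to exons 3 to 22 at 1.13. The genes nearest to Adgrb2 over the wild-type lists, among 1187, were Iqsec1 (distance 0.04), Gm26636 (0.07) and Add2 (0.07).

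Of 14 other adhesion receptor genes, 3 had a region in any list. The paralogue Adgrb3 had 19 knock-in HA reads and 1 knock-in IgG read in mouse 1, a fold of 6.56 whose interval runs from 1.04 to 273. Over wild-type HA, Adgrb3 had 19 knock-in HA and 3 wild-type HA reads in mouse 1 (4.48-fold, 1.32 to 23.7), and 29 knock-in HA and 10 wild-type HA reads in mouse 2 (1.66-fold, 0.785 to 3.81). Adgra1 had 44 knock-in HA and 20 wild-type HA reads in mouse 1 (1.56-fold), and Celsr1 had 10 knock-in HA and 6 wild-type HA reads (1.18-fold). The higher Adgrb3 values rest on few control reads, and its difference from Adgrb1 and Adgrb2 was not tested.

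Plxna4 encodes plexin A4, a receptor for semaphorins that guide axons. Its transcript Plxna4-201 (gene ENSMUSG00000029765, chr6:32144268-32588192, minus strand) spans 443.9 kb of the genome, the longest span of the 6, and has 32 exons. Exon 2 starts its coding sequence and lies in the only Plxna4 region that 3 lists hold at the same coordinates. Other exons, such as the last, also have regions in these lists, but with other coordinates in mouse 2. The start of the coding sequence in exon 2 is shown (chr6:32517560-32517679, minus strand, GRCm38).
Plxna4: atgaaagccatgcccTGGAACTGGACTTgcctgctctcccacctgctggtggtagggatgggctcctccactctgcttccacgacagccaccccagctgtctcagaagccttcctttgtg
It holds 2 matches to each motif in a single run, and 3 of them share bases with another. At least as many TGGA or AGGA stand in 55.3% of the coding windows, and at least as many ACTT or ACTG in 27.2%.

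Plxna4 had 82 knock-in HA and 23 knock-in IgG reads in mouse 1, a fold of 1.23 (0.768 to 2.05), which becomes 0.922 with the pooled scale. Mouse 2 had no Plxna4 region over IgG. Over wild-type HA it had 88 knock-in HA and 51 wild-type HA reads in mouse 1 (1.22-fold, 0.856 to 1.76). In mouse 2 it had 96 knock-in HA and 50 wild-type HA reads (1.10-fold, 0.772 to 1.58). The mean log2 fold over wild type was 0.21 ± 0.11 (SD, n = 2), the highest of the 6 genes, and 56.0% and 49.9% of all genes had lower folds. All 3 intervals hold 1 on the scale of the list median, but with the pooled scale the folds over wild type become 2.03 and 2.08.

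The reads of Plxna4 lay in 10, 11 and 10 short regions, of which 7, 8 and 6 touched an exon. The last exon, which carries the 3' UTR, held the most reads in each of the 3 lists: 34 knock-in HA and 12 knock-in IgG in mouse 1, 34 knock-in HA and 29 wild-type HA in mouse 1, and 52 knock-in HA and 29 wild-type HA in mouse 2. Each remaining region had at most 12 knock-in HA reads. In the exon 2 region, which both mice share, there were 9 and 7 knock-in HA reads, against 9 wild-type HA reads. A fit with limma over 94 regions with the same coordinates in both wild-type lists gave this region a log2 difference of -0.60 ± 0.38 (SE). With the total reads of the 94 regions as the scale the difference was 0.43, so its sign depends on the scale. Some regions lie on the antisense genes Plxna4os2 and Plxna4os3, and without strand the 2 sources of reads cannot be told apart.

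The nearest genes to Plxna4 over wild type were Setd3 (distance 0.01), Etnk1 (0.02) and Azin1 (0.04). Of 27 genes of other plexins, neuropilins and semaphorins, 9 had a region over IgG in mouse 1. Plxna1 had 60 knock-in HA and 20 knock-in IgG reads (1.04-fold) there, and Plxna2 had 32 knock-in HA and 16 knock-in IgG reads (0.691-fold). Plxnb3 had 73 knock-in HA and 50 knock-in IgG reads (0.504-fold), with the interval from 0.347 to 0.738. Over wild-type HA, Plxna1 had folds of 0.805 and 0.836 and Plxna2 of 0.936 and 1.11 in mice 1 and 2.

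Arc is an activity-induced gene whose protein regulates AMPA receptor uptake and forms virus-like capsids. Its transcript Arc-201 (gene ENSMUSG00000022602, chr15:74669083-74672568, minus strand) has 3 exons, and its coding sequence lies in exon 1. The stretch shown is the part of that sequence inside the region that both lists of mouse 2 hold, starting at coding base 948 (chr15:74671306-74671425, minus strand, GRCm38), and it is shown because it carries the most TGGA or AGGA of the 6 stretches.
Arc: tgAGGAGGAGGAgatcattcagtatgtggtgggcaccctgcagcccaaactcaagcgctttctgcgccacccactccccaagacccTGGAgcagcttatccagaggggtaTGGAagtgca
It holds 5 TGGA or AGGA, of which 3 share bases with another, and no ACTT or ACTG. At least as many TGGA or AGGA stand in 5.66% of all coding windows. Over its whole coding sequence Arc has 27.8 TGGA or AGGA per kb, above 96.6% of genes (median 15.8 per kb), and 5.89 ACTT or ACTG per kb, above 19.0% of genes (median 8.57 per kb). Neither density says whether FMRP or CYFIP1 binds there.

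Arc had 19 knock-in HA and 28 knock-in IgG reads in mouse 2, and no region over IgG in mouse 1. The wild-type lists gave it 23 knock-in HA and 28 wild-type HA reads in mouse 1, and 19 knock-in HA and 21 wild-type HA reads in mouse 2. Knock-in HA reads lay below the control reads in all 3 lists, at folds of 0.717 (0.378 to 1.33), 0.582 (0.320 to 1.05) and 0.517 (0.263 to 1.01). Each interval holds 1, so at this number of reads a difference from the list median was not detectable in any single list. Against all genes, 40.2% had lower folds over IgG in mouse 2, and 6.26% and 4.97% over wild-type HA in mice 1 and 2. The mean log2 fold over wild type was -0.87 ± 0.12 (SD, n = 2), and the pooled scale brings the folds to 0.966 and 0.982.

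The Arc region of mouse 2 covered 760 bases of the 3' UTR and 241 coding bases, and that of mouse 1 covered 1342 bases of the 3' UTR and no coding base. The rest of its 1188 coding bases had no region. The nearest genes to Arc over wild type were Kif1b (distance below 0.01), Prex2 (0.05) and Itpr1 (0.07). Of 25 other activity-induced genes, 7 had a region over wild-type HA in mouse 1. Nr4a1, a nuclear receptor gene, stands in all 4 lists. It had 51 knock-in HA and 26 knock-in IgG reads in mouse 1 (0.678-fold), and 41 knock-in HA and 80 knock-in IgG reads in mouse 2 (0.541-fold, 0.362 to 0.798). Set over wild-type HA, Nr4a1 had 51 knock-in HA and 28 wild-type HA reads in mouse 1 (1.29-fold) and 41 knock-in HA and 28 wild-type HA reads in mouse 2 (0.837-fold). Nr4a3 had folds of 1.27 and 1.25 over wild-type HA in mice 1 and 2, and Fosb had 1.17 in mouse 1.

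Ncdn encodes neurochondrin, a neuronal cytoplasmic protein linked to neurite growth. Its transcript Ncdn-201 (gene ENSMUSG00000028833, chr4:126743750-126753409, minus strand) has 7 exons, and 1 region of 10250 bp covers all of them, at the same coordinates in 3 lists. A stretch of its longest coding exon, exon 3, is shown as the contrast to Arc (chr4:126750734-126750853, minus strand, GRCm38).
Ncdn: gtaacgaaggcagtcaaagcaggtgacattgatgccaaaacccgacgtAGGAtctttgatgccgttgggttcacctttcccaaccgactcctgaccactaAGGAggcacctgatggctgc
It holds 2 AGGA and no ACTT or ACTG. The coding sequence has 11.0 TGGA or AGGA per kb, above 17.5% of genes, and 5.94 ACTT or ACTG per kb, above 19.5% of genes.

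Ncdn had 136 knock-in HA and 68 knock-in IgG reads in mouse 1, a fold of 0.691 (0.513 to 0.939), and no region over IgG in mouse 2. Over wild-type HA it had 136 knock-in HA reads in mouse 1 and 153 in mouse 2, against 268 wild-type HA reads. The folds were 0.359 (0.290 to 0.443) and 0.326 (0.266 to 0.399), a mean log2 fold of -1.55 ± 0.10 (SD, n = 2). Knock-in HA reads were below the wild-type reads in both mice, and 2.02% and 1.97% of all genes had lower folds. With the pooled scale the folds are 0.597 and 0.619, still below 1. In the authors' deposited table the same region has adjusted p-values of 8.96e-22 and 2.11e-20 over wild-type HA, although knock-in HA had fewer reads than wild-type HA.

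Across the 94 regions with the same coordinates in both wild-type lists, limma called 14.9% higher and 24.5% lower, with Benjamini-Hochberg adjustment at 0.05. The Ncdn region was among those lower, with a log2 difference of -1.32 ± 0.38 (SE) and an adjusted p of 0.0023. The fit sets 2 libraries against 1, so the lone wild-type library was assumed to vary like the knock-in pair. It gave the same SE to all 4 member regions tested, whatever their reads. That SE and the p-values from it thus do not measure the spread of a single region. With the total reads of the 94 regions as the scale, all differences shift by 1.04 and the Ncdn value was -0.29 with an adjusted p of 0.353. The call is thus lost with that scale. The region also overlaps the start of AU040320, and the library kit named in the labels does not mark strand, so reads of the 2 genes cannot be told apart. The nearest genes over wild type, among 1186, were Rusc2 (distance 0.14) and Cmss1 and Filip1l, which share a region (0.15).

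**Figure D3:**
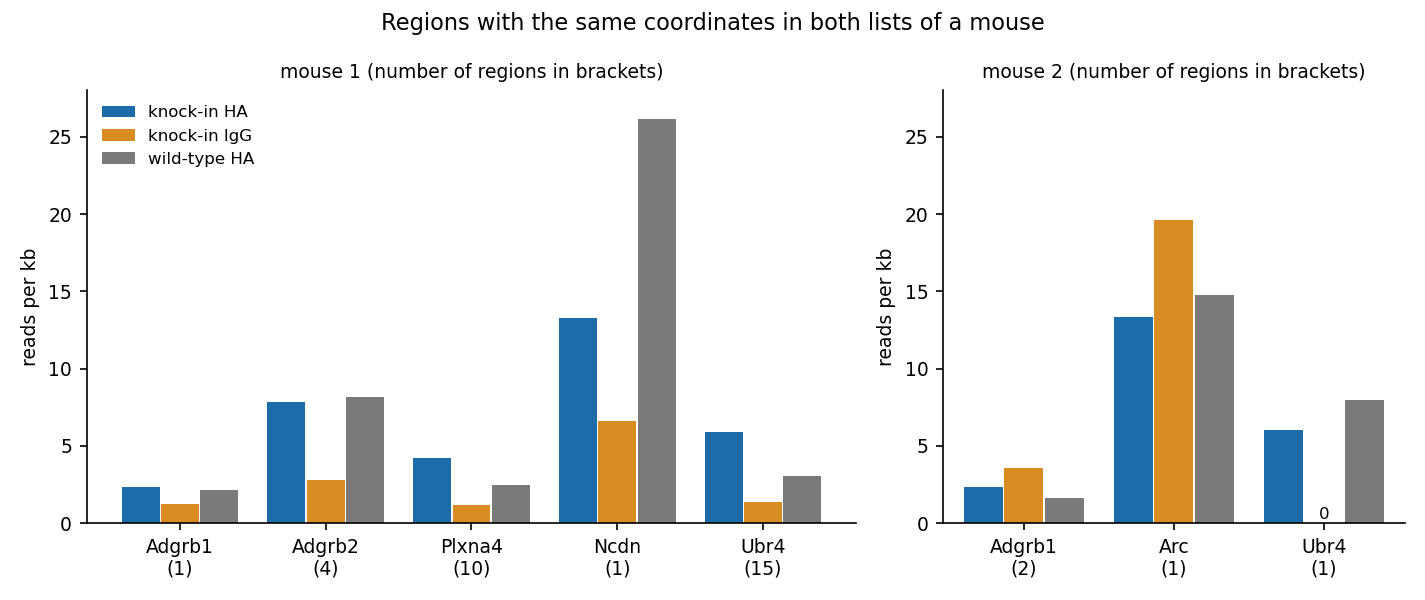
Reads per kb (y axis, linear from 0) in the regions that have the same coordinates in both lists of a mouse, with knock-in HA, knock-in IgG and wild-type HA side by side for each gene and the number of regions in brackets. In mouse 1 knock-in HA lies above knock-in IgG for all 5 genes, as in 95.5% of all regions that both lists of mouse 1 share, and Ncdn is highest in wild-type HA at 26.1.

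The regions with the same coordinates set all 3 kinds of library beside each other. In mouse 1 Ncdn had 13.3 knock-in HA reads per kb, against 6.63 knock-in IgG and 26.1 wild-type HA. Adgrb1 had 2.34 knock-in HA, against 1.27 knock-in IgG and 2.14 wild-type HA, and Adgrb2 had 7.83 knock-in HA, against 2.78 knock-in IgG and 8.17 wild-type HA reads per kb. Plxna4 had 4.23 knock-in HA, against 1.19 knock-in IgG and 2.47 wild-type HA, and Ubr4 had 5.93 knock-in HA, against 1.35 knock-in IgG and 3.05 wild-type HA. Before scaling, knock-in IgG was thus lowest for each of the 5 genes of mouse 1. Of the 3212 regions that both lists of mouse 1 share, it was lowest in 41.4% and below knock-in HA in 95.5%. These shares count single regions, while the gene values are sums over up to 15 regions. Regions of the mouse 1 list over IgG had a median of 5 knock-in HA reads. The 41.4% is thus not a like background for the 5 genes. Scaled to the list median, Adgrb1, Adgrb2 and Ncdn lay below 1 (0.638, 0.974 and 0.691). In mouse 2 Adgrb1 had 2.32 knock-in HA reads per kb, against 3.59 knock-in IgG and 1.63 wild-type HA, and Arc had 13.3 knock-in HA, against 19.6 knock-in IgG and 14.7 wild-type HA. There knock-in IgG was highest for Adgrb1 and Arc, while the Ubr4 region had 6 knock-in HA, 0 knock-in IgG and 8 wild-type HA reads. Of the 1587 regions that both lists of mouse 2 share, knock-in HA was above knock-in IgG in 56.8%. Library depth is unknown, so levels in different libraries are compared here before scaling only.

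Ubr4 encodes a very large ubiquitin ligase that marks proteins for breakdown and is abundant in neurons. Its transcript Ubr4-201 (gene ENSMUSG00000066036, chr4:139380659-139489588, plus strand) has 106 exons, and its coding sequence, with 15540 bases, is the longest of the 6. Exon 13 is the place that all 4 lists hold, and its first 120 bases are shown for that reason (chr4:139399797-139399916, plus strand, GRCm38).
Ubr4: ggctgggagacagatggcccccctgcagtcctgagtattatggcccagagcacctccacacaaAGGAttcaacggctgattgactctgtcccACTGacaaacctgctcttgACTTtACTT
It holds 1 AGGA and 3 matches to ACTT or ACTG. At least as many ACTT or ACTG stand in 8.36% of the coding windows. The whole coding sequence has 16.0 TGGA or AGGA per kb, above 51.8% of genes.

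Ubr4 had the highest fold over IgG of the members in mouse 1. It had 266 knock-in HA and 51 knock-in IgG reads there, a fold of 1.80 (1.33 to 2.48), and 88.1% of the 1094 genes had lower folds. In mouse 2 a single region over exons 12 to 14 held 6 knock-in HA reads and 0 knock-in IgG reads, with under 20 reads in all. With the control set to a floor of 3 reads the fold was 2.11. The counting interval from 0 control reads starts at 1.24 and has no upper end. On the pooled scale the floored fold becomes 0.995. Over wild-type HA, Ubr4 had 219 knock-in HA and 114 wild-type HA reads in mouse 1 (1.36-fold, 1.08 to 1.72, or 2.26 with the pooled scale). In mouse 2 it had 238 knock-in HA and 147 wild-type HA reads (0.925-fold, 0.750 to 1.14, or 1.76 with the pooled scale). The mean log2 fold was 0.17 ± 0.39 (SD, n = 2), so the mice differed by more than the mean.

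**Figure D4:**
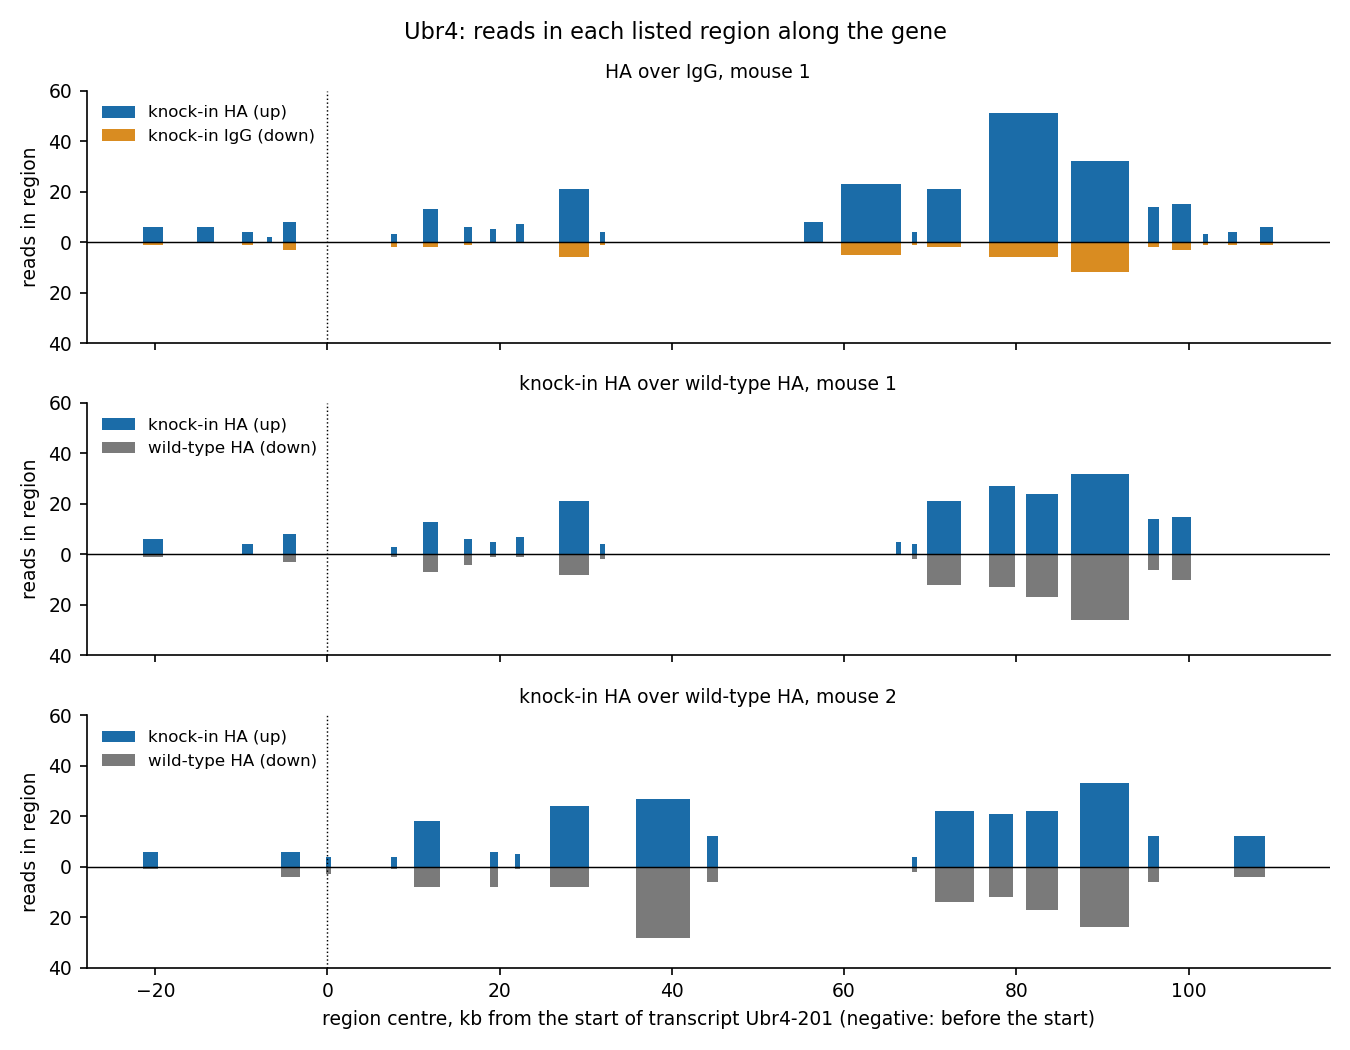
Reads in each Ubr4 region (y axis; knock-in HA upward, control downward) by the distance of its centre from the start of Ubr4-201 in kb (x axis), for 3 lists; bar width is the region length, drawn at no less than 0.6 kb. The highest bar over IgG in mouse 1, with 51 knock-in HA reads, spans exons 74 to 87; unscaled, knock-in HA exceeds knock-in IgG in all 23 regions there and in 95.9% of all regions of that list.

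Ubr4 had 23 regions over IgG in mouse 1 and 18 and 17 regions over wild-type HA, which spanned 72, 57 and 69 of its 106 exons. The longest stretches with no region were exons 27 to 52, 27 to 63 and 44 to 64. Before scaling, knock-in HA reads exceeded the control in 23 of 23 regions over IgG and in 18 of 18 and 15 of 17 over wild-type HA, against 4018 of 4191, 4630 of 5355 and 4825 of 5362 among all regions of these lists. Of the Ubr4 regions with at least 20 reads, 4 of 5 lay above the list median over IgG in mouse 1. Over wild-type HA 6 of 8 did so in mouse 1 and 2 of 7 in mouse 2, where 4 lay below it. The region over exons 74 to 87 had 51 knock-in HA and 6 knock-in IgG reads, and that over exons 88 to 97 had 32 knock-in HA and 12 knock-in IgG reads. Some regions before the main start lie on the gene Emc1, where a longer Ubr4 gene model reaches. These 5, 3 and 2 regions touched no Ubr4-201 exon, and they held 26 knock-in HA and 5 knock-in IgG reads in mouse 1, 18 knock-in HA and 4 wild-type HA in mouse 1, and 12 knock-in HA and 5 wild-type HA in mouse 2. Without them the folds were 1.80, 1.29 and 0.909, and each remaining region touched an exon.

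In the same limma fit, 2 Ubr4 regions with the same coordinates in both mice were tested over wild-type HA. Over exons 79 to 87 there were 24 and 22 knock-in HA reads, against 17 wild-type HA reads (log2 difference -0.01 ± 0.38, adjusted p 0.984). Over exons 98 and 99 there were 14 and 12 knock-in HA reads, against 6 wild-type HA reads (0.62 ± 0.38, adjusted p 0.197). Neither passed. With total reads as the scale they had log2 differences of 1.03 and 1.66. That scale raises the differences of all 94 regions by 1.04, so the rise is not particular to these 2 regions. Whether they pass depends on the scale. No member region was among the 92 tested over IgG, where limma called 13.0% higher and 19.6% lower.

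The nearest genes to Ubr4 over wild type were Gramd4 (distance 0.03), Cerk (0.03) and Cbx5 (0.06). Of 22 other ubiquitin ligase genes, 7 had a region over IgG in mouse 1. Huwe1, another giant ligase gene, had 184 knock-in HA and 89 knock-in IgG reads in mouse 1 (0.714-fold, 0.552 to 0.931), and 197 knock-in HA and 250 wild-type HA reads in mouse 2 (0.450-fold, 0.372 to 0.545). Herc2 had 181 knock-in HA and 224 wild-type HA reads in mouse 1 (0.572-fold).

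By the mean of both mice over wild-type HA, the 6 genes ran in the order Plxna4, Ubr4, Adgrb1, Adgrb2, Arc and Ncdn. In mouse 1 alone Ubr4, at 1.36, stood above Plxna4, at 1.22. No neighbours in that order had separate counting intervals in either mouse. The ends did: Ncdn, at 0.359 and 0.326, lay below the intervals of Plxna4, Ubr4, Adgrb1 and Adgrb2 in both mice, while the wide interval of Arc overlaps it. No such order can be given over IgG, where 1 member had at least 20 reads in both mice.

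Other FMRP target mRNAs had higher medians over IgG. Scaffold, spectrin and motor genes were kept out of the 6 by the choice of genes, and could stand only among the other targets. The contrast is thus not independent of that choice. Of 85 such genes, drawn up with results of these data known, 40 had a region. Of those with at least 20 reads, 10 of 27 reached 2-fold over IgG in mouse 1 and 14 of 21 in mouse 2. Among all genes 9.69% and 8.80% did so. The medians of the other targets were 1.29 and 2.74. Genes at 2-fold or more over IgG in both mice included Shank2, Macf1, Sptan1, Sptbn1, Agap2, Srcin1, Ppp1r9b and Mprip. Shank2, a postsynaptic scaffold gene, reached 3.89-fold in mouse 1, from 1239 knock-in HA and 110 knock-in IgG reads. In mouse 2 Shank2 reached 7.29-fold, from 511 knock-in HA and 74 knock-in IgG reads. Over wild-type HA the other targets had medians of 0.806 and 0.805. There 1 of 25 and 1 of 29 genes were at 2-fold or more, Shank2 in both mice (2.89 and 2.32), and 5 and 7 at 0.5-fold or less. Among all genes 13.5% and 11.6% were at 2-fold or more over wild-type HA, and 4.09% and 4.49% at 0.5-fold or less. Sptan1, Sptbn1, Srcin1, Ppp1r9b and Mprip had no region over wild-type HA, so those medians leave them out. Agap2 had folds of 0.556 and 0.455 over wild-type HA. In both mice Kif1a, Dync1h1, Macf1 and Dst were at 0.5-fold or less. Macf1 had 1353 knock-in HA reads, against 4349 wild-type HA reads, in mouse 1 (0.220-fold). No difference between the 6 genes and the other targets was tested.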

How the data were processed

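Hippocampal lysates were precipitated with anti-HA or mouse control IgG, and libraries were made with a NEBNext Ultra DNA kit and sequenced single-end with 50 cycles, per the labels' protocols. TopHat, TopHat2, GRCm38 and mm10 are named in the submitters' processing notes. Per the file headers, rtracklayer 1.28.9 wrote the lists. The sources used here do not give the region caller. The deposited lists hold other values inside attribute text: read counts of the HA and control library for each region, not normalized, and further values by the authors, an empirical false discovery rate and an adjusted p-value.

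Reads were summed over a gene's regions in each list, divided by the median region ratio (regions with at least 20 reads), and given exact 95% counting intervals. A control of 0 was set to 3 reads. PCR reads without molecular identifiers are not independent molecules, and the labels only number the mice, so the spread behind SDs and p-values may be technical. The edgeR test in the design was not run. In its place limma 3.58.1 was run on log2(count + 0.5) of regions with the same coordinates in both mice, scaled by the median of ratios, and tested on simulated data. Mouse numbers pair each HA with its IgG library, since the labels give both the same mouse; the HA and IgG differences between mice had a correlation of -0.04 over 92 regions. Gene models and sequences are from GENCODE M21 (GRCm38), where 4686 of 4727 gene identifiers were found; windows shown were chosen after the regions were seen, and motifs were searched on the transcript strand only. All 6 members were named; of each related list the 3 genes with most reads and those past 2-fold or 0.5-fold in both mice of a comparison were named, and the 3 nearest genes by Euclidean distance of log2 folds; some genes this rule names are not reported here. The members and lists were chosen with earlier results of these data known.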

Additional observations from a re-analysis of the deposited data

Results flagged for a closer look

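Regions that the authors' annotation placed near Adgrb1 but not on it were not used above. In mouse 2 over IgG they had 23 knock-in HA and 10 knock-in IgG reads together, a fold of 2.43 over the list median, whereas the regions on Adgrb1 had 0.682. They were noticed because they show reads above the control outside the measured regions. They lie 130 and 138 kb upstream, on no GENCODE M21 gene, with 18 knock-in HA and 8 knock-in IgG reads in the farther region (2.38-fold, 0.983 to 6.32). In mouse 1 over IgG the matching region had 20 knock-in HA and 7 knock-in IgG reads (0.987-fold, 0.401 to 2.76). Over wild-type HA in mouse 2 the farther region had 18 knock-in HA and 6 wild-type HA reads (1.71-fold, 0.652 to 5.28), and the nearer region had 5 knock-in HA and 4 wild-type HA reads (0.714-fold, 0.154 to 3.60). The difference from the regions on the gene was not tested.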

How the results depend on the processing

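Of the values for single members under an alternative, 142 kept their size within the counting interval or the spread of the mice, 32 moved, and 2 that were past the 2-fold limit came to lie on the other side of 1. Both are Ubr4 over IgG in mouse 2, at 0.995 with the pooled scale and 0.643 with the median of its own chromosome. Counting values within the limits too, 15 of 148 single-list folds crossed 1. With the pooled scale 6 of 20 did so: besides that Ubr4 value, Plxna4 over IgG in mouse 1 (0.922), and over wild-type HA Adgrb2 in both mice (1.13 and 1.27) and Adgrb1 (1.54) and Ubr4 (1.76) in mouse 2.

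The summed members over IgG in mouse 1 were 0.812 with the pooled scale, 0.928 with the chromosome median, 0.733 with at least 50 reads, 1.37 with regions inside genes only and 1.65 with regions past the authors' adjusted p of 0.05. In mouse 2 they were 0.338 with the pooled scale and 0.956 with regions on no other gene, an alternative chosen after seeing the data that leaves out the large Adgrb1 region. Over wild-type HA they were 1.24 and 1.21 with the pooled scale, 1.03 and 0.859 inside genes only, 0.908 and 0.783 on no other gene, and 0.670 with at least 10 reads in mouse 1. The causes were not tested.

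Members at 2-fold or more became 2 in mouse 1 over IgG with the authors' adjusted p, and over wild-type HA 2 and 1 with the pooled scale and 1 with the authors' adjusted p in mouse 1. The pooled scale shifts all genes of a list alike, and the share of all genes past a limit was not counted under these alternatives. Members at 0.5-fold or less became 1 over IgG in mouse 1 with the pooled scale and with at least 50 reads, and 2 in mouse 2 with the pooled scale. Over wild-type HA they became 0 in both mice with the pooled scale and inside genes only, 0 in mouse 1 on no other gene, and 2 in mouse 2 with at least 10 reads. Inside genes only and on no other gene leave Ncdn out, since its region runs past the gene start and overlaps AU040320. Regions past the authors' adjusted p gave Plxna4 3.63 over IgG in mouse 1, and Ubr4 2.61 and 2.86 over wild-type HA in mice 1 and 2. These values rest on 23, 61 and 18 reads, the last under the minimum of 20. The authors' adjusted p compares the same 2 libraries as the fold. Choosing regions by it is thus not independent of the fold, and the counts and sums under this alternative are no separate support.

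Regions called by limma over IgG were 30 of 92, with 42 at an unadjusted p under 0.05. With the replicate block, which pairs the libraries of a mouse, they were 19. With total reads as the scale, added after seeing the data, they were 47, and leaving out 1 library gave 0 to 65 calls: 0 without either HA library (21 and 24 at an unadjusted p under 0.05), 65 without knock-in IgG 1 and 51 without knock-in IgG 2. Over wild-type HA 37 of 94 regions were called, 60 without a minimum of reads and 71 with total reads. Leaving out a library there leaves 1 against 1, so no value was computed, and the edgeR and DESeq2 alternatives were not run. Few reads stand behind the folds of Arc and of the Ubr4 region of mouse 2 over IgG.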

Other observations

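The authors' deposited table gives an adjusted p below 0.05 to 64.6% and 87.3% of the regions over IgG in mice 1 and 2, and to 82.3% and 78.8% over wild-type HA. On the 6 genes it does so for 27 of 39 and 2 of 4 regions over IgG, and for 25 of 39 and 15 of 34 over wild-type HA. Among those member regions the HA library had fewer reads than its control in 0 and 1 over IgG and in 4 and 3 over wild-type HA. Over all genes, 17 of 2708 and 485 of 1677 such regions had fewer HA than IgG reads in mice 1 and 2. Fewer HA than wild-type HA reads stood in 284 of 4406 and 150 of 4225. Before scaling, a low adjusted p of the authors thus stands on regions with fewer as well as more HA reads. Scaled to the list median, 35 of 477 and 68 of 672 such regions with at least 20 reads were at 0.5-fold or less over IgG. Over wild-type HA 72 of 1099 and 79 of 1041 were. Library depth is unknown, so the direction of the authors' calls was not tested. For Arc the authors' deposited table gives adjusted p-values of 0.612 over IgG in mouse 2, and 0.0600 and 1.00 over wild-type HA in mice 1 and 2.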
